A study of Mus musculus with 10 samples.

Results

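Potassium channels open a pore through which K+ leaves or enters a cell and so set the resting potential and shape the voltage response to light and synaptic input. Their genes carry symbols that begin with Kcn. The 87 protein-coding genes with such a symbol, of 25905 genes and 16635 protein-coding genes in a table of retinal transcripts, are described here, and symbol and biotype alone chose them. They fall into 21 subfamilies by the letter after Kcn, with Kcnma, a pore gene, and Kcnab, Kcnip, Kcnmb and Kcnrg, which encode auxiliary proteins, kept apart by their longer stems. Total RNA was sequenced, after removal of ribosomal RNA with a strand-marking kit, from the left and the right retina of 5 wild-type C57BL/6J mice numbered 61, 64, 65, 66 and 68. All were taken on postnatal day 34, and each mouse had worn a −20 dioptre lens over 1 eye for 10 days from day 24, a treatment used to drive the eye towards myopia, while the other eye was left untreated. The labels name the side and not the eye with the lens, so the groups are 5 left retinas and 5 right retinas, each of which may mix lens and untreated eyes.

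In photoreceptors, voltage-gated channels of the inner segment carry the outward K+ current that balances the inward current of the outer segment. There the silent subunit Kv8.2 (Kcnv2), which forms no channel alone, joins pore-forming subunits of another subfamily. In Müller glia, which span the retina, the inward rectifiers Kir4.1 (Kcnj10) and Kir2.1 (Kcnj2) take up the K+ that active neurons release. Neurons of the inner retina, such as bipolar, amacrine and ganglion cells, use voltage-gated, calcium-activated and G protein-gated channels.

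Values are CPM, a gene's read count scaled to a fixed library total. 1 CPM stood for 89.6 to 113.8 counts, and the listed genes held 29680000 to 37250000 counts per library. They summed to 321660 to 346700 CPM, so most of the inferred library total lies outside the listed genes. Marker genes of rods (Gnat1, Pde6a, Nrl and Nr2e3) summed to 3350 to 3828 CPM, those of bipolar cells to 310.4 to 342.2 CPM and those of Müller glia to 789.6 to 933.2 CPM, so defining markers of retina were present in each library. Some libraries stood apart in other markers. Of the 6 lens genes listed, the sum reached 738 CPM in the right eye of mouse 65, against 6.77 to 104.8 CPM elsewhere. The 6 skeletal muscle genes summed to 75.0 CPM in the left eye of mouse 68, against 1.46 to 3.68 CPM elsewhere. The 4 immediate early genes, which respond within minutes to stimulation, summed to 54.8 and 66.3 CPM in mouse 61 and 11.3 to 18.1 CPM in the other mice.

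Of the Kcn genes, 3 exceeded 100 CPM on average, among them Kcnv2 and Kcnma1, 22 members lay between 10 and 100 CPM, 30 between 1 and 10 CPM, 19 between 0.1 and 1 CPM and 13 below 0.1 CPM. Together the members summed to 1633 to 1796 CPM per library. To compare genes of different length, CPM were divided by the length of a gene's merged exons in kilobases. The plot of levels per exon length shows the steep fall from Kcnv2 and Kcnj14 to the other genes drawn.

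**Figure D1:**
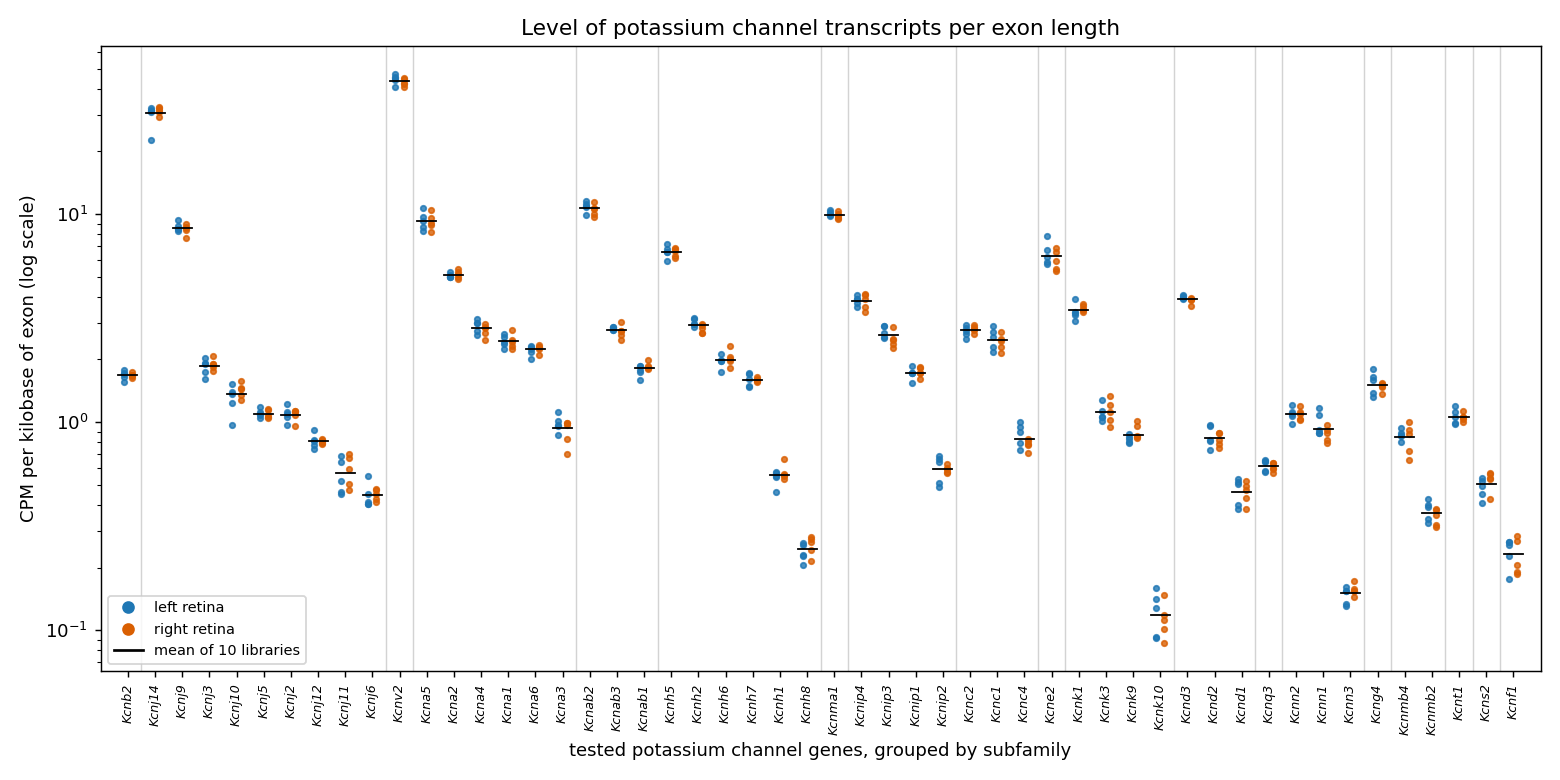
CPM per kilobase of exon (log axis) of 52 potassium channel genes averaging 1 CPM or more, grouped by subfamily and separated by grey lines. Blue points are 5 left retinas, orange points 5 right retinas and black bars the mean of 10 libraries. Kcnv2 and Kcnj14 stand above 20 in every library, and left and right points overlap for all members shown.

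The photoreceptor subunit Kcnv2 (chr19:27322588-27337179, plus strand, GRCm38) was among the highest of the family, at 43.7 ± 2.11 CPM per kilobase (SD, n = 10 libraries of 5 mice, as for all levels in this form). Its level was 224.1, 239.5, 207.8, 230.0 and 232.6 CPM in the left retinas of mice 61, 64, 65, 66 and 68, and 214.3, 217.1, 208.1, 229.2 and 228.7 CPM in the right retinas. Mouse 65 was the lowest on both sides, while the sides overlapped. The rod markers summed to 3398 and 3418 CPM in the left and right retinas of mouse 65, and to 3350 CPM in the right retina of mouse 61. In mouse 65 Gnat1 and Nr2e3 lay near the low end of each side and Nrl on the left. Pde6a, at 837.9 and 819.7 CPM in that mouse, did not. The part of the rod markers in the Kcnv2 values was not tested. In a bulk sample, fewer cells of a type and less RNA per cell cannot be told apart. The coefficient of variation of Kcnv2, the SD as a share of the mean, was 4.83%. The pore-forming delayed rectifier gene Kcnb2 reached 1.68 CPM per kilobase, with 23.7 to 26.9 CPM. Kcnv1, the other member of the silent subfamily of Kcnv2, was at 0.0358 CPM per kilobase.

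Kcnj14, which encodes the inward rectifier Kir2.4, stood at 30.5 ± 2.95 CPM per kilobase (chr7:45816460-45824782, minus strand). The left retinas read 88.2, 84.2, 85.1, 61.4 and 86.1 CPM and the right retinas 87.5, 84.0, 85.5, 79.0 and 88.4 CPM, in the order of mice given above. Both libraries of mouse 66 were the lowest of their side. The ranges of Kcnv2, Kcnj14 and the gene next below it did not overlap on this scale. The ratio of Kcnj14 to Kcnv2 per kilobase was 0.701 ± 0.0824, and lowest in the left retina of mouse 66, at 0.502. The order Kcnv2, Kcnj14, Kcnab2 and Kcnma1 was the same with the longest transcript or the longest coding sequence as the length and with any mouse left out.

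Below them came genes whose neighbours in the order often did not differ beyond their spread. Kcnab2, a cytoplasmic beta subunit of Kv1 channels, stood at 10.7 ± 0.659 CPM per kilobase, and Kcnma1, the pore of the large-conductance calcium-activated BK channel, at 9.94 ± 0.307. Kcnab2 was the higher in 9 of 10 libraries. Kcnma1 varied the least of the 55 tested members, with 161 to 177 CPM and a coefficient of variation of 3.09%. Kcna5, a pore-forming Kv1 gene, was at 9.25 ± 0.850 CPM per kilobase and exceeded Kcnj9 (8.56 ± 0.453), which encodes a subunit of G protein-gated channels, in 8 of 10 libraries. The place of Kcna5 depended on the length used, being the sixth with merged exons and the twelfth with coding sequence. Kcnh5, of the ether-à-go-go channels, was at 6.58 ± 0.360 and the small auxiliary subunit gene Kcne2 at 6.26 ± 0.760. With merged exons they could not be ordered, as Kcnh5 was the higher in 6 of 10 libraries. Kcna2, a Kv1 subunit, was at 5.10 ± 0.170 and on that length below Kcne2 in 10 of 10 libraries. With coding sequence as the length the order changed, with Kcna2 at 40.5, Kcne2 at 30.0 and Kcnh5 at 9.01 CPM per kilobase. Kcnd3, the pore of a fast inactivating A-type channel, was at 3.92 and Kcnip4, a calcium-binding protein that joins such channels, at 3.82 CPM per kilobase, and Kcnd3 was the higher in 6 of 10 libraries. Kcnip4 shares 168 exonic bases with the opposite-strand gene 5730480H06Rik, at 10.4 CPM, so reads of both may be mixed in its value.

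By subfamily, the sum per kilobase over all members held 18.6% Kcnj, 17.3% Kcnv, 9.05% Kcna, 6.05% Kcnab, 5.51% Kcnh, 3.94% Kcnma and 3.47% Kcnip. In Kcnv and Kcnj a single gene made most of that sum (Kcnv2 and Kcnj14). Kcna was shared more evenly, with Kcna5, Kcna2, Kcna4, Kcna1 and Kcna6 at 9.25, 5.10, 2.83, 2.45 and 2.23 CPM per kilobase. In Kcnc, the fast delayed rectifiers used by neurons that fire at high rates, Kcnc2 and Kcnc1 stood at 2.77 and 2.47 CPM per kilobase. Kcnq3, a subunit of the M-current channel of axons, stood at 0.614 CPM per kilobase. The 10 two-pore genes (Kcnk) were led by Kcnk1, a leak channel gene, at 3.46 CPM per kilobase, with 4 of them tested. These orders hold for merged exons. With coding sequence as the length, Kcnk9 at 8.84 exceeded Kcnk1 at 7.66 CPM per kilobase. On that length Kcnc1 at 13.3 also exceeded Kcnc2 at 10.3, and Kcna2 at 40.5 exceeded Kcna5 at 14.7. Kcng4, a silent subunit reported in bipolar and ganglion cells, reached 1.51 CPM per kilobase and was the single tested member of 4 in its subfamily. In the calcium-activated Kcnn genes Kcnn2 led at 1.09, and in the sodium-activated Kcnt genes Kcnt1 led at 1.06 CPM per kilobase. The remaining leaders were Kcnmb4, a BK beta subunit, at 0.851, the silent subunits Kcns2 and Kcnf1 at 0.505 and 0.233, and Kcnu1, a channel of sperm, and Kcnrg, a regulator of Kv1 channels, at 0.114 and 0.0936 CPM per kilobase.

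Among glial channels, Kcnj10 ranked 30th of the 87 at 1.36 ± 0.173 CPM per kilobase (chr1:172341210-172374085, plus strand). It read 5.23, 6.67, 7.38, 7.53 and 8.26 CPM in the left and 7.33, 6.94, 8.53, 7.93 and 7.81 CPM in the right retinas. The left retina of mouse 61 was the lowest of all 10. In that library the sum of the Müller markers was the highest, 933.2 CPM, of which Glul made 660.8 CPM. Glul and Rlbp1 were at their highest there and Apoe was high. Slc1a3 and Aqp4, at 54.3 and 35.2 CPM, lay near the low end of their ranges. The part of Müller content in the Kcnj10 value was not tested. Kcnj2 stood at 1.09 CPM per kilobase, with 5.21 to 6.65 CPM. Kcnj16 (Kir5.1), a partner of Kir4.1 in other tissues, was at 0.0211 to 0.132 CPM, and its ratio to Kcnj10 per kilobase was 0.0155. The microglial channels differed, with Kcnk13 at 0.0325 to 0.212 CPM and Kcna3, which neurons also use, at 1.33 to 2.13 CPM. Microglia markers summed to 3.02 to 4.53 CPM.

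The channel genes of pericytes and of the pigment epithelium followed here were low. Kcnj8, of pericytes, lay at 0.457 to 1.21 CPM beside pericyte and endothelium markers of 75.0 to 89.7 CPM. Most of that sum was Kdr, at 37.5 to 47.8, and Rgs5, at 26.2 to 32.8 CPM. Pdgfrb, Pecam1 and Cldn5 read 4.53 to 5.44, 3.42 to 4.37 and 1.51 to 2.64 CPM. Kcnj13, of the pigment epithelium, lay at 0.182 to 0.650 CPM beside pigment epithelium markers of 56.8 to 75.8 CPM. Most of that sum was Rlbp1, a Müller gene too, at 49.7 to 65.9 CPM. The other markers were lower, with Ttr at 3.73 to 7.897 and Rpe65 at 1.3499 to 3.0003 CPM. Pmel read 0.978 to 2.78 and Best1 0 to 0.131 CPM. The merged exons of Kcnj13 share 623 bases with the opposite-strand gene Gigyf2, at 61.3 CPM. The sources used here do not state whether reads were counted by strand. Kcnq1 at 0.0463 CPM overlaps the long noncoding RNA Kcnq1ot1 on the opposite strand, which stood at 260.8 to 297.0 CPM. Kcnj11, the pore of the ATP-sensitive channel, read 1.66 to 2.58 CPM. Kcna7, of muscle, was listed at 0 in 8 libraries, where 3 counts would be 0.0264 to 0.0335 CPM, and read 0.0422 and 0.0638 CPM in the left retinas of mice 61 and 68. Skeletal muscle markers summed to 75.0 CPM, the most of all, in the left retina of mouse 68, but to 1.73 CPM in that of mouse 61. The part of muscle in the Kcna7 values was not tested. In all, 10 members were at 0 in some library, and Kcnh4 was the lowest per kilobase.

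For 62 of the 87 members a promoter was matched by symbol in a RefSeq table (GRCm38.p6). Kcnv2 and Kcnj14 were not among them. The 250 bases upstream of the start are printed for Kcnj9 and Kcnh5, among the 12 highest members, and for Kcne2 and Kcnj10, with the lowest p between mice and the highest right-minus-left difference, because in these 4 the RefSeq start lies within 4 bases of the deposited one. Sequences run 5′ to 3′ along the gene, and capitals mark TAATCC, the core motif of the photoreceptor factor CRX, here read on the opposite strand.
Kcnj9, chr1:172329323-172329572, minus strand: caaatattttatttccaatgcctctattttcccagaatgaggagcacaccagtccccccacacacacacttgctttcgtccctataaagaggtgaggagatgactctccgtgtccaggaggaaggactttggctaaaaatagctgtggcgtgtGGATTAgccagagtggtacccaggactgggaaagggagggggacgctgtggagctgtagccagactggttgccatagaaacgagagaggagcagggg
Kcnh5, chr12:75177333-75177582, minus strand: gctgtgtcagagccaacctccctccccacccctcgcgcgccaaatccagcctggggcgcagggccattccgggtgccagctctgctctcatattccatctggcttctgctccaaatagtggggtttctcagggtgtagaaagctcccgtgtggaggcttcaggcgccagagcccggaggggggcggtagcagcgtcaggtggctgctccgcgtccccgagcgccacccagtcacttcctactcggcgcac
Kcne2, chr16:92292139-92292388, plus strand: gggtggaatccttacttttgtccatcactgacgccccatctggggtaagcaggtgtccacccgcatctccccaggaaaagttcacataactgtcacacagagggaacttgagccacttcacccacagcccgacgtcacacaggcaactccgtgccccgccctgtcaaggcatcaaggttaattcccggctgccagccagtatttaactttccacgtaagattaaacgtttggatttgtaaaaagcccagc
Kcnj10, chr1:172340960-172341209, plus strand: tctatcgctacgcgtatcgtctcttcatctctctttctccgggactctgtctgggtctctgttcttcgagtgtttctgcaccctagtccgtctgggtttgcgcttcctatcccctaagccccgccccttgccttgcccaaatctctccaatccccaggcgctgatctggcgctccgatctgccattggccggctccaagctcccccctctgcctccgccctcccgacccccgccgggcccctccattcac

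The motif TAATCC was searched on both strands, and of the printed upstream stretches only that of Kcnj9 held it, 97 bases before the start. Over all members it stood in 2 of 62 (3.23%, Kcnj9 and Kcnrg), against 6.25% of 32851 promoters of the table. TGCTGA, the half-site of the rod factor NRL, stood in 8 of 62 (12.9%) against 16.1%. These shares are of unlike sets. Each member enters with the promoter nearest its deposited start, while the background takes every promoter listed, with no filter on build. The letters of one motif cannot overlap those of the other, while both strand readings of TAATCC can share TA, and a promoter was counted once for each motif. For 22 of the 62 the nearest RefSeq start was more than 50 bases from the deposited start.

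The comparison of right with left asks whether the side of the eye goes with channel expression. A test was made for genes averaging 1 CPM or more, on log2(CPM + 1), which understates the change of weak genes. By that rule 55 members (63.2%) were tested, against 71.7% of the table's protein-coding genes. Just inside were Kcnk10 at 1.04 and Kcnf1 at 1.11 CPM and just outside was Kcng3 at 0.744 CPM. With the mouse as a block, no member was called at an adjusted p under 0.05 (limma, Benjamini-Hochberg over 14210 genes), where 0 genes of all were called, or 0%. Before adjustment 1 member was under 0.05 (1.82%), against 333 genes or 2.34% of all. Some other settings put the members' share above that of all genes, such as 5.41% against 1.92% with a filter of 5 CPM. The members were split into 24 higher and 31 lower on the right, with a median of −0.01 log2 units and a range of −0.14 to 0.13, while the median over all tested genes was 0.00.

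**Figure D2:**
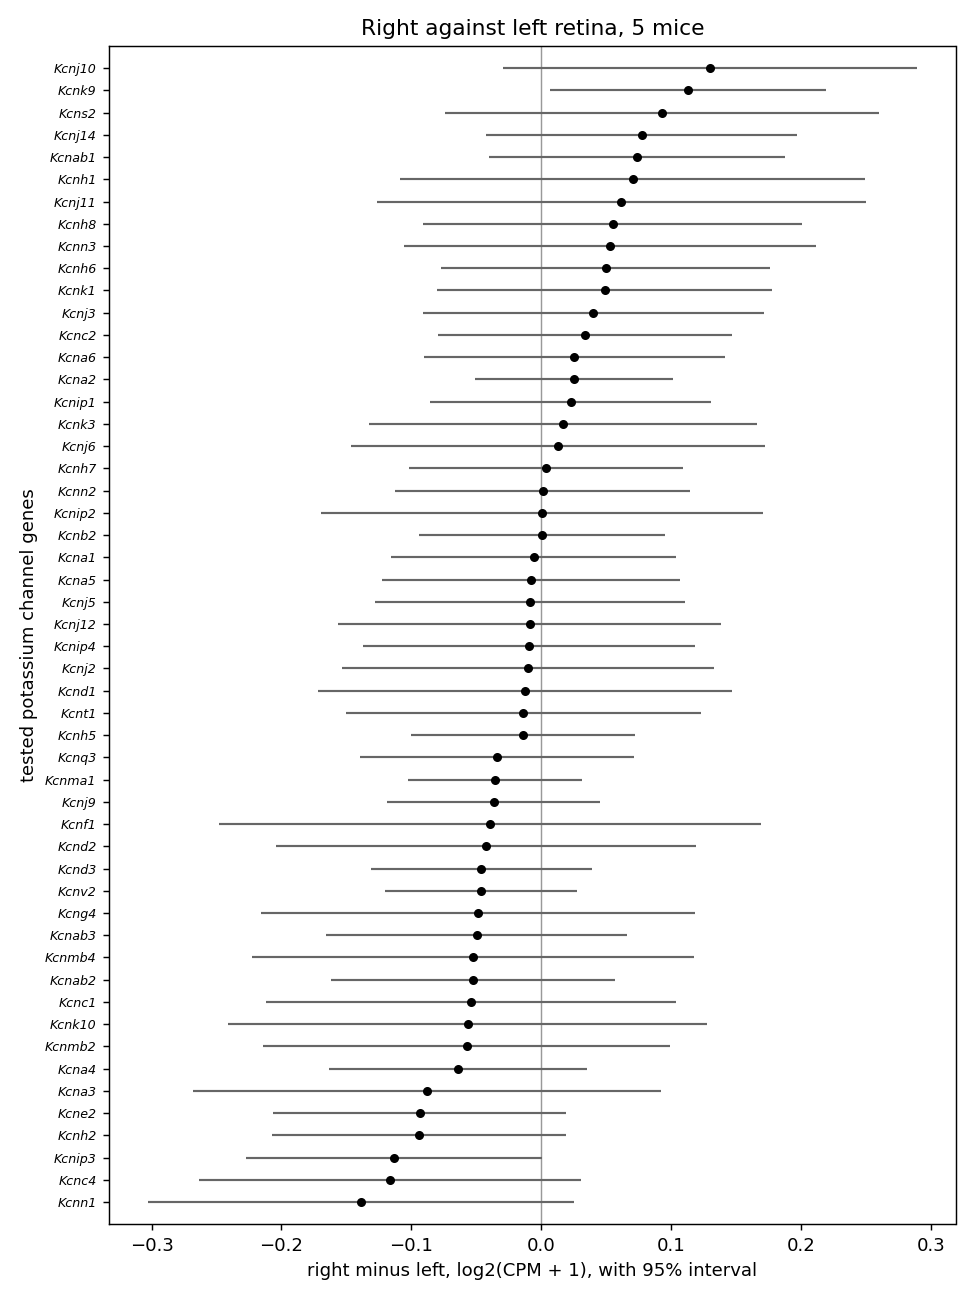
Right minus left in log2(CPM + 1) for 52 of the 55 tested potassium channel genes, ordered by the difference, with points for the mean over 5 mice and lines for the 95% interval. All differences lie between −0.14 and 0.13, and of the intervals that of Kcnk9 alone leaves out 0.

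The intervals limit the size of a shift that could have been missed for single genes. In 50 of 55 members the 95% interval lay within 0.25 log2 units of 0, and in 54 within 0.3. The exception was Kcnn1, with a lower bound of −0.30. On this scale 0.3 is a fold of 1.23 in CPM + 1, and stands for a larger fold in CPM for weak genes. For Kcnv2 the difference was −0.05 (95% interval −0.12 to 0.03), and for Kcnj14 it was 0.08 (−0.04 to 0.20). Kcnma1 was at −0.04 (−0.10 to 0.03) and Kcna2 at 0.03 (−0.05 to 0.10).

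Kcnk9, a two-pore channel of the acid-sensitive kind that carries leak current, had the lowest p of the members. It read 10.4, 9.82, 9.74, 10.7 and 10.2 CPM in the left and 11.8, 10.5, 10.6, 12.4 and 10.3 CPM in the right retinas. The right was the higher in 5 of 5 mice, yet the sides overlapped. The difference was 0.11 log2 units (SE 0.05), with an unadjusted p of 0.0397 and an adjusted p of 0.9996 by limma. Kcnh8, of the ether-à-go-go family at 1.12 CPM, was the other member higher on the right in all 5 mice. These 2 of 55 (3.64%) compare with 2.78% of all tested genes.

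Kcnip3, a calcium-binding partner of A-type channels that is also known as the repressor DREAM, had the lower value on the right in every one of the 5 mice. Its level was 10.3, 10.3, 9.50, 9.03 and 9.13 CPM in the left and 8.87, 10.2, 8.40, 8.79 and 8.01 CPM in the right retinas. The difference was −0.11 log2 units (SE 0.05, unadjusted p = 0.0504, adjusted p = 0.9996 by limma). Kcnh2, of the ERG channels, was lower in all 5 mice too, but the differences of mice 64, 65 and 66 were −0.01, −0.02 and 0.00 log2 units. These 2 members (3.64%) stand against 2.01% of all tested genes. Kcnn1, a small-conductance calcium-activated channel, differed the most at −0.14 (SE 0.07). Mouse 64 gave −0.42 in that gene and mouse 61 gave 0.03. Kcne2 differed by −0.09 (SE 0.05), with the right lower in 4 of 5 mice.

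Kcnj10 had the highest difference, 0.13 log2 units (SE 0.07, 95% interval −0.03 to 0.29), with the right the higher in 4 of 5 mice. Mouse 61 gave 0.42, and without that mouse the difference was 0.06. Across the 9 tested Kcnj genes the value was positive in 5 and negative in 4. In no subfamily was a member called.

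The comparison between mice used the same fit, with an F-test over the mice. Of all genes, 81 (0.57%) were called at an adjusted p under 0.05, and none of the 55 members. Before adjustment 5 members were under 0.05 (9.09%), against 13.8% of all genes; with libraries scaled to a common median these were 9 members (16.4%) and 14.6%. The range of the mouse means had a median of 0.17 log2 units over members and 0.21 over all tested genes. Kcne2, Kcnj14 and Kcna5 were among the 5, and the plot of fellow retinas shows them.

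Kcne2 had the lowest p. It read 10.2, 10.4, 13.8, 11.0 and 11.9 CPM in the left and 9.40, 9.61, 11.6, 10.5 and 12.1 CPM in the right retinas of mice 61, 64, 65, 66 and 68. Mice 65 and 68 were above the others on both sides. The mouse means spanned 0.34 log2 units, and the adjusted p was 0.217 by limma. Kcnj14 spanned 0.33 (adjusted p = 0.277 by limma), with mouse 66 at 70.2 CPM and the other means at 84.1 to 87.8 CPM.

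Kcna5 was at its lowest in mouse 61, at 23.6 and 23.5 CPM against 24.7 to 30.6 CPM in the other 8 libraries, and spanned 0.29 log2 units (adjusted p = 0.330 by limma). Mouse 61 was the mouse with high immediate early genes, and the part of this in the values of Kcna5 was not tested. Kcnj10, Kcna4 and Kcnh5 had adjusted p of 0.382, 0.392 and 0.398 by limma, with ranges of 0.33, 0.18 and 0.19 log2 units. Without mouse 61, 23 genes in place of 81 were called between mice, and 3 in place of 5 members were under 0.05 before adjustment, or 5.45% against 6.38% of all genes.

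**Figure D3:**
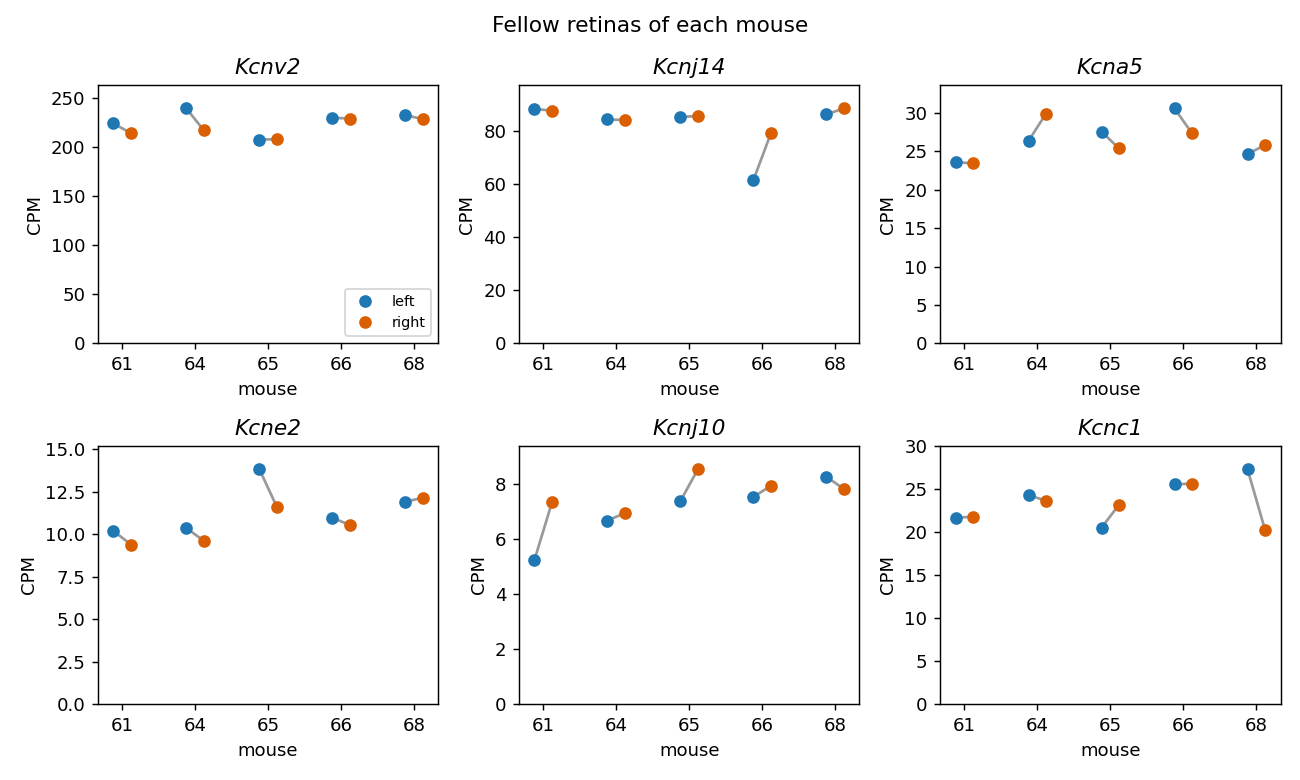
CPM of 6 potassium channel genes in the left (blue) and right (orange) retina of each of 5 mice, joined by a grey line, on linear axes that start at 0. In Kcnv2 mouse 65 is the lowest on both sides; in Kcnj14 the left retina of mouse 66 reads 61.4, in Kcnj10 the left retina of mouse 61 reads 5.23, and in Kcnc1 the retinas of mouse 68 read 27.3 and 20.3.

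As either eye may have worn the lens, the size of the difference between fellow eyes was described whichever the side, as the root mean square of its values in the 5 mice. Its median was 0.12 log2 units over members and 0.13 over all tested genes. Each gene was set against the 500 tested genes nearest in level. A value above the median of such genes was found in 23 members (41.8%), against 50.2% of all tested genes. The members' share lies below that background, and no test was made of this measure.

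Kcnj14 had the highest ratio to like genes, 2.10, with a root mean square of 0.16 log2 units. Mouse 66 gave 0.36, and the other 4 mice gave −0.01 to 0.04. Without mouse 66 the right-minus-left difference of Kcnj14 was 0.01 in place of 0.08 log2 units. Kcnc1 was also high by this ratio, and there the left and right retinas of mouse 68 read 27.3 and 20.3 CPM. Its difference was −0.41 in that mouse and between −0.04 and 0.17 in the others, and without mouse 68 its mean was 0.04 in place of −0.05. Kcnab2 was at 1.64, with −0.25, −0.11, 0.03, 0.10 and −0.03 in mice 61, 64, 65, 66 and 68, then Kcnj10 at 1.55, Kcnn1 at 1.31 and Kcna5 at 1.27. In Kcnj14, Kcnc1, Kcnj10 and Kcnn1 a single mouse gave the widest difference, and that mouse was 66, 68, 61 and 64 in turn. The left retina of mouse 68 was also the library with muscle transcripts, whose part in the Kcnc1 value was not tested. The smallest ratio was that of Kcnj5, a G protein-gated channel gene, at 0.18.

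**Figure D4:**
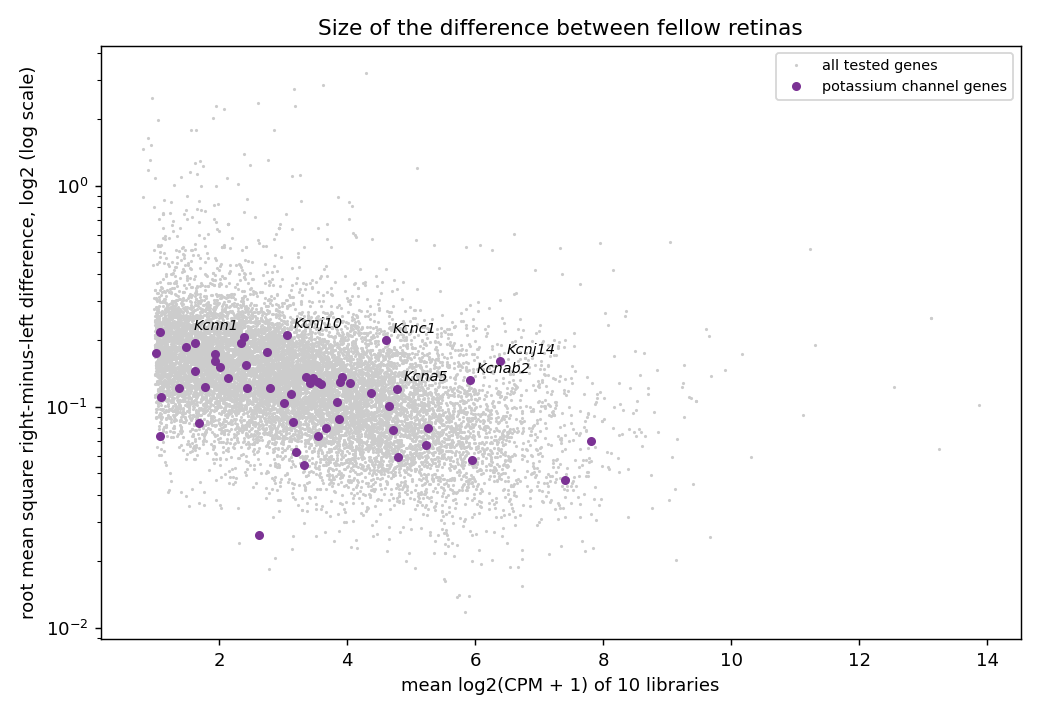
Root mean square, over 5 mice, of the difference between fellow retinas (log2 units, log axis) against mean log2(CPM + 1), for all 14210 tested genes in grey and 52 of the 55 tested potassium channel genes in purple. The 6 labelled genes lie high relative to genes of like level, with Kcnj14 at 0.16 and Kcnc1 at 0.20.

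Other genes of potassium handling were followed in a list of 44 genes, made of channel partners, cation channels of photoreceptors, sodium pumps and K+ transporters. Of these, 42 were in the table and 41 were tested, of which 19 had a positive and 22 a negative right-minus-left value and none was called in either comparison. Before adjustment Dlg4, a scaffold that binds Kv1 and Kir channels, was under 0.05 at −0.07 log2 units, with a negative value in 5 of 5 mice. Atp1b1, a sodium pump subunit, was under 0.05 at 0.08 and higher in 5 of 5. These 2 of 41 (4.88%) stand against 2.34% of all tested genes. Before adjustment 5 were under 0.05 between mice, namely Dlg4, Aqp4, Atp1b2, Dag1 and Slc24a1, a share of 12.2% against 13.8% of all tested genes. Aqp4, the water channel of Müller endfeet that lies beside Kir4.1, had an adjusted p of 0.217 between mice by limma.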

How the data were processed

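RNA of 10 retinas (left and right of 5 mice) was analysed. The deposited values are CPM with 0.0001 added to each, a unit inferred from the values because no source used here names it. The submitters' processing notes name STAR, Partek and GRCm38 (mm10). Versions, counting rule and strand setting were not given in the sources used here. Per the labels, forward and reverse reads are unequal in number in the raw data of mouse 64, right eye. Since 1 count was worth 0.00879 to 0.0112 CPM, precision at 1 CPM rests on 89.6 to 113.8 counts. Of low values, 90.5% to 91.6% were whole multiples of that step within 0.1, too few to recover reads.

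After the 0.0001 was taken off, log2(CPM + 1) of 14210 genes averaging 1 CPM or more was fitted with limma 3.58.1 in R 4.3.3 (trended moderated variances, two-sided, side and mouse terms, Benjamini-Hochberg over all tested genes, threshold 0.05). Differences among mice were tested with the moderated F-test on the mouse coefficients. The mouse is a block because both retinas come from the same animal; taken as deviations from each side's mean, the profiles of fellow eyes had correlations over genes of 0.607, 0.143, 0.166, 0.172 and 0.311. Lengths are merged exons of GENCODE M21, whose gene ends match 85 of 87 members (not Kcnab1 and Kcnab2). On simulated data with 14210 genes, 50 genes were changed at each of 0.25, 0.5, 1 and 2 log2 units, all together. The side test recovered 38% of those changed by 0.25 log2 units, 94% at 0.5 and 100% at 1, and the mouse test 66%, 100% and 100%. Many changed genes loosen the Benjamini-Hochberg cutoff. Where few genes change, recovery of a small change would be lower, and that case was not simulated. Of 177 genes called by the side test over all sizes 11 were unchanged ones, and 19 of 202 by the mouse test.

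The members and lists were chosen with earlier results of these data known. Named genes are those tied to retinal cell types, the 12 highest per kilobase, the highest of each subfamily, any called, and the 6 lowest p of each comparison and the 6 largest between-eye ratios. Other genes, such as further members of a subfamily, were named after their values were seen. Some members that enter the sums and counts are left unnamed, and their values are not reported here. Alternatives were another pseudocount, filter, scaling and length, limma-voom on counts implied by the step, no block, each mouse left out and, chosen after seeing the data, mice 65 and 68 left out together.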

Additional observations from a re-analysis of the deposited data

Results flagged for a closer look

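Of 78 groups of 5 retinas (39 named genes on each side), 4 held a library whose gap to its nearest neighbour was large for the range of the group. Chance flags about 1 in 20 groups, and 4 of 78 is close to that rate. The rate is a rough guide only, as some genes, Kcnj14 among them, were named for large differences in these data. Kcna7, at 0 in all right retinas, could not be flagged on that side. All 4 were low values. Kcnj14, the inward rectifier, read 61.4 CPM in the left eye of mouse 66, against 84.2 to 88.2 CPM in the other left retinas. Without mouse 66 its right-minus-left difference was 0.01 in place of 0.08 log2 units. Kcnj2, a glial inward rectifier, read 5.21 CPM in the right eye of mouse 64, against 5.91 to 6.14 CPM in the other right retinas. Kcns2, a silent subunit, read 2.39 CPM in that same library and 2.99 to 3.18 CPM in the others. It is the library whose raw files held unequal numbers of forward and reverse reads per the labels, and the part of this in both values was not tested. Kcnd3, an A-type channel, read 34.6 CPM in the right eye of mouse 61, against 37.2 to 37.8 CPM in the other right retinas.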

How the results depend on the processing

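No member and no gene was called right against left by limma under any of the 14 alternatives tried, and no member between mice, with 188 to 856 genes under an unadjusted p of 0.05 right against left. Without the replicate block, 0 genes and 0 members were called, and 188 genes and 0 members were under 0.05 before adjustment; the block changed no other call. Limma-voom called 0, with 336 genes (2.36%) and 1 member (1.82%) under 0.05. With a mean of at least 5 CPM required, 2 of 37 members (5.41%) were under 0.05, against 1.92% of genes. With no filter they were 4 of 87 (4.6%), against 3.3% of 25905 genes. With a pseudocount of 0.1, protein-coding scaling, median scaling or without mouse 68 they were 2 (3.64%), against 2.36%, 2.46%, 2.51% and 1.62%. In the other settings the members' share was below that of all genes. The count of genes called between mice was 64 to 99 under other settings, the 99 without a side term, and 23 to 90 when a mouse was left out, being 23 without mouse 61 and 39 without mouse 68. Leaving out mice 65 and 68 together, chosen after seeing the data for their lens and muscle transcripts, gave 42 genes. The lowest adjusted p of a member between mice ran from 0.132 to 0.603. With median scaling 9 members (16.4%) in place of 5 were under 0.05 between mice before adjustment, against 14.6% of all genes. Of the alternative right-minus-left values of the 32 named genes tested, 25 in 13 genes had the other sign and 385 did not. On leaving out a mouse the lowest and highest values were −0.0316 and 0.0218 for Kcna1, −0.0538 and 0.0292 for Kcna5, −0.0242 and 0.0282 for Kcnb2, −0.110 and 0.0355 for Kcnc1, −0.0098 and 0.0634 for Kcnc2, −0.139 and 0.0125 for Kcnf1, −0.0986 and 0.0248 for Kcng4, −0.0312 and 0.0035 for Kcnh5, −0.0560 and 0.0311 for Kcnip4, −0.0554 and 0.0278 for Kcnj2, −0.107 and 0.0076 for Kcnmb4, −0.0182 and 0.0284 for Kcnn2 and −0.0642 and 0.0308 for Kcnt1. Protein-coding and median scaling gave −0.00132 and −0.00191 for Kcnb2 and −0.000744 and −0.00135 for Kcnn2, against 0.000467 and 0.00102 as deposited. None was called under any setting. Levels per kilobase moved by over 1 SD in 51 alternative values, all with another length, and by less in 261. Depth limits members under 0.1 CPM, which rest on 0 to 15 counts a library, and a side effect of 0.25 log2 units would be missed more often than found.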
